A study of Homo sapiens with 6 samples.

Results

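The Grainyhead factors GRHL1, GRHL2 and GRHL3, the OVO-like factors OVOL1 and OVOL2, the ZEB factors ZEB1 and ZEB2, the Snail factors SNAI1 and SNAI2, and TWIST1 are transcription factors that set epithelial or mesenchymal state. These 10 genes were taken by name from the 18417 genes that have a probe set annotated to exactly 1 gene symbol. Whole-transcript Affymetrix arrays were run on HCT116 cells, a long-established line from a human colorectal carcinoma. There were 3 arrays of a derived mutant HCT116 line described as having altered DNA methylation and 3 arrays of the parental HCT116 line, both grown in McCoy's medium with serum. The mutated gene is not named in the labels, and the labels do not say whether the mutant arrays come from more than 1 clone. The comparison asks how the mutation affects expression across the genome. Any other difference that separates the lines cannot be told apart from the mutation.

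Grainyhead factors bind epithelial enhancers and promoters and activate adhesion genes such as CDH1, which encodes E-cadherin. Snail and ZEB proteins bind E-box sequences in the same kind of gene and repress them with the help of corepressors, and TWIST1 is a basic helix-loop-helix factor that favours the mesenchymal state. GRHL2 and ZEB1 are known to repress each other, OVOL proteins repress ZEB1, and microRNAs of the miR-200 family act on the ZEB messenger RNAs. In colorectal carcinoma cells the balance of these factors is known to differ between epithelial and mesenchymal lines.

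Letters that some of these factors are known to bind can be searched for in sequence. The E-box is written CAGGTG or CACCTG, the Grainyhead palindrome AACCGGTT and the OVOL core CCGTTA or TAACGG, and both strands of RefSeq windows (GRCh38.p14) from 250 bases before to 50 after a start site were searched. The 3 windows below were chosen after the values were seen, to show a switch factor and epithelial genes with such letters. Capitals mark the matches, none of which overlap. All are E-boxes, and the 3 windows hold no Grainyhead palindrome and no OVOL core. ZEB1 has 7 such start sites in RefSeq, and the window with most E-boxes is shown (chr10:31318966-31319265, plus strand). RAB25 (chr1:156060910-156061209, plus strand), a GTPase of epithelial vesicle recycling, and CLDN7 (chr17:7262429-7262728, minus strand), a tight junction claudin, hold E-boxes. Another CLDN7 start site has a window that holds 0 E-boxes and is not shown.
ZEB1: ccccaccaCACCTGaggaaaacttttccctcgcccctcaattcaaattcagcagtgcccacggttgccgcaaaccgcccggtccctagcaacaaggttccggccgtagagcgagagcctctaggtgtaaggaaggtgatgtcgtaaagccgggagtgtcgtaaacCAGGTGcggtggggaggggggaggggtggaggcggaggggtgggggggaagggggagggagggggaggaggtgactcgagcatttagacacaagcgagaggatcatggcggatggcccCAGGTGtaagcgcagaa
RAB25: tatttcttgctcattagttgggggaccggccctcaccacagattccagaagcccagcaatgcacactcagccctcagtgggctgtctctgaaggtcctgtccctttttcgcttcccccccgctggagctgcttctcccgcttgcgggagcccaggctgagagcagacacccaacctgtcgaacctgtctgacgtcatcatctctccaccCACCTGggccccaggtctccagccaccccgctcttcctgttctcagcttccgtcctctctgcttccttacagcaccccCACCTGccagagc
CLDN7: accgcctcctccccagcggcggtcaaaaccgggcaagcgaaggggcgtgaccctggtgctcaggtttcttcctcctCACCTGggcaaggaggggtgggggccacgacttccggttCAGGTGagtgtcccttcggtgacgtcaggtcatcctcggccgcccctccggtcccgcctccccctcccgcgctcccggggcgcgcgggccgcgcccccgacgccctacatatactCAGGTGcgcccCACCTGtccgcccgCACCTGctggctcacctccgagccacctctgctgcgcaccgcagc

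The mature microRNAs of the miR-200 family (RefSeq, GRCh38.p14) fall into 2 groups by their seed, bases 2 to 8, shown in capitals. They are shown because both ZEB genes are known targets. The mature sequences of miR-200b (chr1:1167160-1167181), miR-200a (chr1:1167916-1167937) and miR-429 (chr1:1169055-1169076) lie on the plus strand, as do those of miR-200c (chr12:6963742-6963764) and miR-141 (chr12:6964155-6964176).
miR-200b-3p: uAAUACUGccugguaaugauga
miR-200c-3p: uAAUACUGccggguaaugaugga
miR-429: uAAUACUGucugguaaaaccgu
miR-200a-3p: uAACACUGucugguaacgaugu
miR-141-3p: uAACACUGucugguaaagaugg

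Of the 10 switch factors, 3 rose in the mutant (SNAI2, OVOL2 and ZEB1), 5 fell (GRHL2, TWIST1, SNAI1, OVOL1 and GRHL1) and 2 did not pass the test (GRHL3 and ZEB2). The test was limma on log2 values, with Benjamini-Hochberg adjustment over all 33297 probe sets and a threshold of 0.05 for the adjusted p. The mutant line differed widely from the parental line. Over all genes 25.9% were called, 14.6% higher and 11.3% lower, and among genes above background in at least 1 group 33.9% were called. The median difference of the 10 factors was -0.19 on the log2 scale, against 0.0034 over all genes. The values of the mutant and parental arrays did not overlap for 9 of the 10 factors, against 45.8% of all genes. Among these 9 was GRHL3, which was not called and whose groups met at 6.30. A change of at least 2-fold was called for 2 factors, GRHL2 and SNAI2, against 2.45% of all genes (0.798% higher and 1.65% lower). The other 6 called factors changed by 0.26 to 0.56 on the log2 scale. The rises and falls did not divide by the state that a factor is known to favour. Of the factors known to favour the epithelial state OVOL2 rose while GRHL2, OVOL1 and GRHL1 fell, and of those known to favour the mesenchymal state SNAI2 and ZEB1 rose while SNAI1 and TWIST1 fell.

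**Figure D1:**
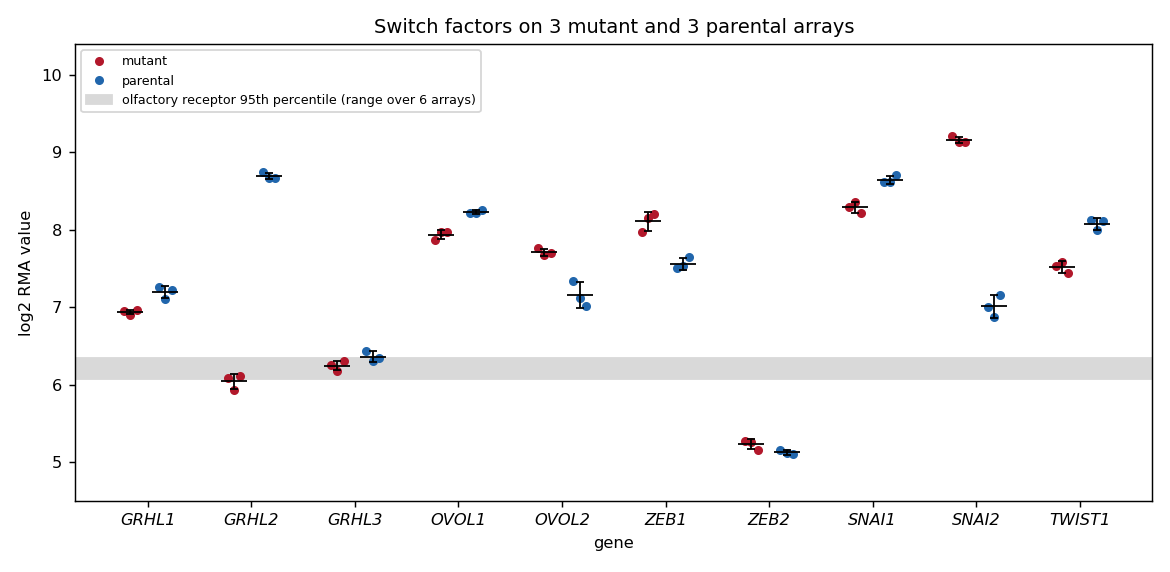
Log2 RMA value (y axis) of each of the 10 switch factors (x axis) on 3 mutant arrays (red) and 3 parental arrays (blue), with the mean and SD in black; the grey band spans the 95th percentile of olfactory receptor probe sets over the 6 arrays. GRHL2 lies in or below the band on the mutant arrays and at 8.67 to 8.74 on the parental arrays, SNAI2 lies at 9.13 to 9.21 on the mutant arrays and 6.87 to 7.16 on the parental arrays, and ZEB2 lies below the band in both lines.

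Absolute levels were read against the background of each array, taken as the 95th percentile of 360 probe sets of olfactory receptor genes, a family rarely active outside olfactory tissue. This background was 6.08 to 6.18 on the mutant arrays and 6.15 to 6.34 on the parental arrays (log2). In each line 8 factors lay above it on all 3 arrays. The count depends on the level chosen, with 7 factors in the mutant and 5 in the parental line above the 99th percentile. Above the 95th percentile of leukocyte, endothelial and fibroblast markers there were 3 in each. That marker level is set by the brightest of these markers. Among them, COL1A1 and CD68 stood above the olfactory receptor background on all arrays of both lines. It may therefore lie above the level of silent genes. At a lower level, the olfactory receptor median plus 1, every factor but ZEB2 lay above on all 3 arrays of both lines. At the level used, the lines differed in which 8: GRHL2 did so in the parental line only and GRHL3 in the mutant line only. GRHL3 stood 0.11 above background on average in both lines, and 1 parental array lay 0.04 below it. Over all genes 70.9% lay above background on all 3 arrays in the mutant and 69.3% in the parental line. Levels of different genes were not set against each other, since probes differ in brightness.

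GRHL2, the Grainyhead factor of simple epithelia (probe set 8147697, chromosome 8), had log2 values of 6.09, 5.93 and 6.11 on the mutant arrays, against 8.74, 8.67 and 8.67 on the parental arrays. All mutant arrays lay below all parental arrays, with a gap of 2.56 between the groups. The means were 6.04 ± 0.10 in the mutant and 8.70 ± 0.04 in the parental line (SD, n = 3 each). GRHL2 stood above background on 0 of 3 mutant arrays, 0.09 below it on average, and on 3 of 3 parental arrays. At this background its level in the mutant has only an upper bound, and GRHL2 was at least 5.92-fold lower there (limma adjusted p = 1.31e-05). The bound depends on the level chosen and would be smaller with the 99th percentile. Against a lower level, the olfactory receptor median plus 1, GRHL2 stood above on 3 of 3 mutant arrays. At the background used, the difference of the measured means, -2.65, is not a measure of the size of the fall. In bulk samples a smaller share of cells with a transcript and less transcript per cell cannot be told apart.

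GRHL1, a paralog of GRHL2 active in epidermis (probe set 8040190, chromosome 2), had values of 6.95, 6.90 and 6.96 on the mutant arrays, against 7.26, 7.11 and 7.22 on the parental arrays. The groups did not overlap, but the gap was 0.15. It fell by 0.26 (SE 0.06; limma adjusted p = 0.0264). The call was lost without mutant replicate 1, 2 or 3 and without parental replicate 1 or 3, at limma adjusted p-values of 0.0646 to 0.0948. GRHL3, known for the skin barrier and neural tube closure (probe set 7898916, chromosome 1), had 6.25, 6.18 and 6.30 on the mutant arrays and 6.44, 6.30 and 6.34 on the parental arrays. The groups met at 6.30, near background in both lines, and the difference was -0.12 (limma adjusted p = 0.277). At the background used, the size of a fall of GRHL3 could not have been measured. Against a lower level, the olfactory receptor median plus 1, GRHL3 stood above on 3 of 3 arrays in each line.

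OVOL1, a zinc finger repressor of epidermis and germ cells (probe set 7941401, chromosome 11), had values of 7.87, 7.98 and 7.97 on the mutant arrays, against 8.22, 8.22 and 8.26 on the parental arrays. All mutant values were lower, and OVOL1 fell by 0.29 (SE 0.05; limma adjusted p = 0.0113). OVOL2, its paralog and a repressor of ZEB1 (probe set 8065185, chromosome 20), had 7.76, 7.67 and 7.70 on the mutant arrays, against 7.34, 7.12 and 7.02 on the parental arrays. All mutant values were higher, and OVOL2 rose by 0.55 (SE 0.09; limma adjusted p = 0.00837), a 1.47-fold change. The paralogs moved in opposite directions. Within an array the log2 ratio of OVOL2 to OVOL1 was 0.85 higher in the mutant.

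ZEB1, a zinc finger and homeodomain repressor of E-cadherin (probe set 7926916, chromosome 10), had values of 7.98, 8.15 and 8.21 on the mutant arrays, against 7.50, 7.54 and 7.65 on the parental arrays. The mutant arrays were all higher, with a gap of 0.33. ZEB1 rose by 0.55 (SE 0.08; limma adjusted p = 0.00543), a 1.46-fold change (95% interval 1.28 to 1.67). It stood 1.98 above background in the mutant and 1.31 above it in the parental line. ZEB2, the paralog with a similar role (chromosome 2), is the one factor with 2 probe sets. The brighter one, 8055624, had 5.27, 5.26 and 5.16 on the mutant arrays and 5.16, 5.11 and 5.10 on the parental arrays. These overlapped and were below background on all 6 arrays (difference 0.11; limma adjusted p = 0.26). The other, 8055639, had 2.89 to 3.29 on the mutant arrays and 3.04 to 3.32 on the parental arrays, far below background too (difference -0.13; limma adjusted p = 0.591).

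SNAI2, the Slug repressor of E-cadherin (probe set 8150698, chromosome 8), had values of 9.21, 9.13 and 9.14 on the mutant arrays, against 7.01, 6.87 and 7.16 on the parental arrays. Every mutant array stood above every parental array, with a gap of 1.97. The means were 9.16 ± 0.04 in the mutant and 7.01 ± 0.15 in the parental line (SD, n = 3 each). SNAI2 rose by 2.15 (SE 0.08; limma adjusted p = 5.31e-05), which is 4.43-fold higher (95% interval 3.85 to 5.09). Only 15 genes had a larger positive difference. It stood 3.03 above background in the mutant and 0.77 above it in the parental line. Against the 99th percentile of the olfactory receptor probe sets, SNAI2 stood above on 3 of 3 mutant arrays and on 1 of 3 parental arrays.

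SNAI1, the Snail repressor and paralog of SNAI2 (probe set 8063382, chromosome 20), had values of 8.29, 8.36 and 8.22 on the mutant arrays, against 8.62, 8.62 and 8.71 on the parental arrays. All mutant values were lower, and SNAI1 fell by 0.36 (SE 0.06; limma adjusted p = 0.00922). The log2 ratio of SNAI2 to SNAI1 was 2.50 higher in the mutant, with SDs of 0.08 in the mutant and 0.11 in the parental line. TWIST1 (probe set 8138442, chromosome 7) had 7.54, 7.59 and 7.44 on the mutant arrays, against 8.12, 7.99 and 8.12 on the parental arrays. It fell by 0.56 (SE 0.065; limma adjusted p = 0.00249), with a gap of 0.41 between the groups. For the ratios of OVOL2 to OVOL1 and of SNAI2 to SNAI1 a two-sided exact permutation test gave p = 0.1, also p = 0.1 after adjustment over the 5 paralog ratios computed, which is the smallest value that 3 against 3 arrays allow. The other 3 ratios involve GRHL2, GRHL3 or ZEB2, which lay at or below background, and are not given.

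**Figure D2:**
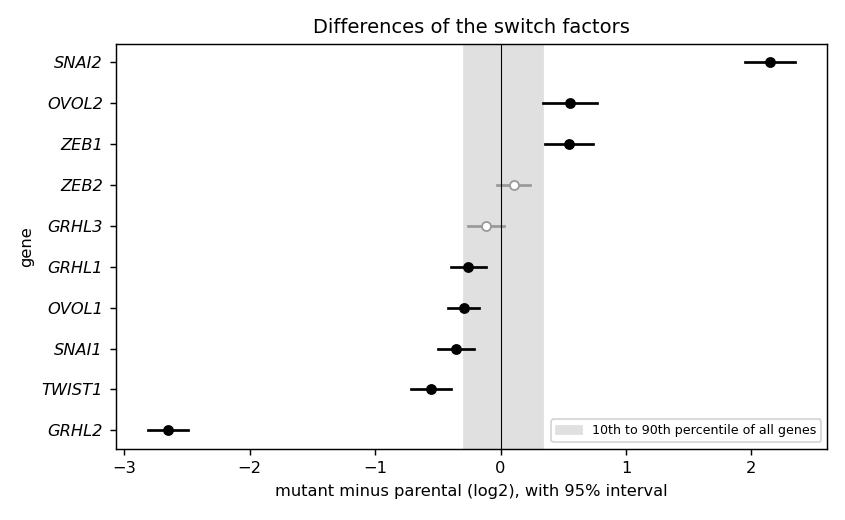
Mutant minus parental difference on the log2 scale (x axis) of the 10 switch factors (y axis), with the 95% interval from limma; filled points passed the adjusted p threshold and open points did not. The grey band spans the 10th to 90th percentile of all 18417 genes (-0.29 to 0.34), and GRHL2 at -2.65, with mutant values at background, and SNAI2 at 2.15 lie farthest outside it.

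GRHL2 and SNAI2, which changed most and in opposite directions, both lie on chromosome 8. Of the 10 nearest measured genes around GRHL2, 5 on each side in RefSeq order, 2 were called higher and 0 lower, with differences of -0.26 to 0.56 (median -0.06). NCALD and NACA4P, its nearest measured neighbours, differed by -0.05 and 0.10 (limma adjusted p = 0.648 and 0.548). Of the 10 around SNAI2, 2 were higher and 1 was lower, with differences of -0.88 to 0.39 (median -0.01). The 1 lower gene was MCM4, a subunit of the replicative helicase. On chromosome 8 as a whole the median difference was -0.02, with 13.8% of 638 genes called higher and 11.4% lower. The other 8 factors lie on chromosomes 1, 2, 7, 10, 11 and 20, and the median difference of their own neighbours ran from -0.16 (ZEB1) to 0.08 (GRHL3). Around TWIST1 0 of 10 rose and 4 fell (limma), against 14.2% called higher and 11.8% lower on chromosome 7. Differences around TWIST1 ran from -2.80 to 0.07. The 2 lowest, MACC1 and ITGB8 at -2.80 and -2.49, had the sign of TWIST1 and a larger size, with mutant means of 5.45 and 5.36, below background. Around ZEB1 1 rose and 3 fell, against 17.2% called higher and 11.8% lower on chromosome 10. Differences around ZEB1 ran from -0.81 to 2.17, the highest being that of NRP1. Around the other 6 factors differences lay between -0.75 and 0.75. MACC1, ITGB8 and NRP1 were named after their values were seen.

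**Figure D3:**
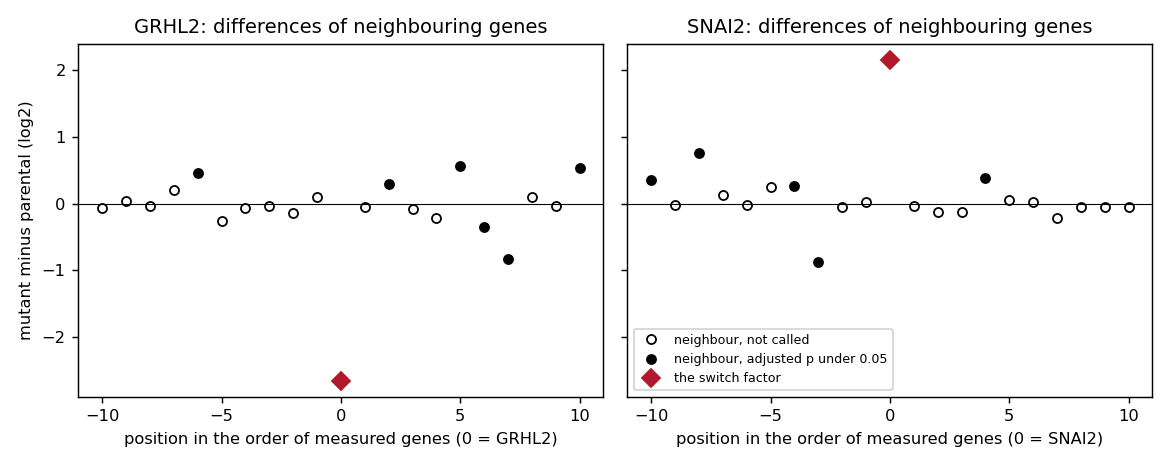
Mutant minus parental difference on the log2 scale (y axis) for GRHL2 and SNAI2 (red diamonds) and for the 10 nearest measured genes on each side of them in chromosome order (x axis: position in that order); filled circles passed the adjusted p threshold. The neighbours of GRHL2 lie between -0.84 and 0.56 and those of SNAI2 between -0.88 and 0.76, against -2.65 and 2.15 for the factors.

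By Euclidean distance between centred log2 values over the 6 arrays, the 3 genes most like GRHL2 were MTUS1, DPYSL3 and TSPAN5, at distances of 0.16, 0.16 and 0.25. MTUS1 had 6.96 ± 0.07 in the mutant and 9.62 ± 0.03 in the parental line (mean log2 ± SD, n = 3 each). The 3 genes most like SNAI2 were TENM3, IFI6 and KRCC1, at distances of 0.09, 0.14 and 0.23. TENM3 had 8.24 ± 0.03 in the mutant and 6.14 ± 0.11 in the parental line. With 2 groups, this measure finds genes with a difference of similar size.

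Epithelial genes that Grainyhead factors activate or that Snail and ZEB proteins repress fell more often than they rose. Of 39 measured, 20 fell, 2 rose and 17 did not pass, with a median difference of -0.27 against 0.0034 over all genes. Over all genes 11.3% fell and 14.6% rose. CDH1 had 8.83, 8.71 and 8.97 on the mutant arrays, against 10.16, 10.18 and 10.26 on the parental arrays. The groups stood apart, and CDH1 fell by 1.36 (SE 0.08; limma adjusted p = 0.000204). CLDN4, a tight junction claudin known as a GRHL2 target, had 9.62 ± 0.20 in the mutant and 10.58 ± 0.20 in the parental line (SD, n = 3 each). RAB25, with the E-boxes shown above, had 10.06 ± 0.08 in the mutant and 10.85 ± 0.05 in the parental line. KRT18, a keratin of simple epithelia with many pseudogene copies that can share probes, fell by 0.88. The 2 that rose were DSP, which encodes desmoplakin, at 0.38 and MARVELD2, a protein of tricellular junctions, at 0.35. EPCAM, an adhesion molecule of epithelia, had 12.33 ± 0.06 in the mutant and 12.15 ± 0.03 in the parental line (difference 0.18; limma adjusted p = 0.0715). EPCAM and CLDN7 were named after their values were seen. CLDN7 fell by 0.59. The median difference of all genes was 0.08 on chromosome 9, -0.03 on chromosome 13, -0.04 on chromosome 17 and -0.04 on chromosome 18. The share called higher was 30.9% on chromosome 9, and the share called lower was 17.7% on chromosome 13, 22.9% on chromosome 17 and 25% on chromosome 18. Without the genes of these chromosomes, left out after the data were seen, 13 of 30 epithelial genes fell and 2 rose (median -0.19). The matching share over all genes outside these chromosomes is not given here.

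The epithelial genes were also split by the letters in their promoter windows, as a description with no test. An E-box was found in 20.6% of all 35116 RefSeq promoter windows, in 16 of 33 windows of epithelial genes, and in 4 of 32 windows of mesenchymal genes. The epithelial list holds genes known for such boxes, so its share is not independent. Among the 21 measured epithelial genes with a window, 7 of the 15 with an E-box fell and 1 rose, and 4 of the 6 without one fell and 1 rose. The Grainyhead palindrome was found in 0.134% of all windows and in 1 epithelial window. The OVOL core was found in 3.07% of all windows and in 2 of 11 windows of the switch factors, 1 of ZEB1 and 1 of ZEB2. Only 4 switch factors (GRHL1, GRHL3, ZEB1 and ZEB2) had a window in the set used, and 7 of the 11 windows were of ZEB1. The other switch factors were not searched. A match is a description of letters and not a binding site.

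Mesenchymal target genes moved both ways. Of 33 measured, 5 rose, 3 fell and 25 did not pass, with a median of -0.0041. The share called, 24.2%, was near the 25.9% of all genes. VIM, which encodes the intermediate filament vimentin, had 8.32, 8.20 and 8.36 on the mutant arrays, against 7.37, 7.32 and 7.40 on the parental arrays. The groups did not overlap, and VIM rose by 0.93 (SE 0.06; limma adjusted p = 0.000319). ACTA2, smooth muscle actin, rose by 1.30, TPM2, a tropomyosin, by 0.36, and LOXL2, a lysyl oxidase known to act with SNAI1, by 0.31. MMP14, a membrane-bound collagenase, fell by 0.93, S100A4, a calcium-binding protein, by 0.64, and ITGA5, the alpha subunit of the fibronectin receptor, by 0.61. CDH2, which encodes N-cadherin, was 5.35 ± 0.21 in the mutant and 5.26 ± 0.20 in the parental line (SD, n = 3 each), below background in both. FN1, fibronectin, differed by -0.02 (limma adjusted p = 0.889). CDH2 and FN1 were named after their values were seen.

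**Figure D4:**
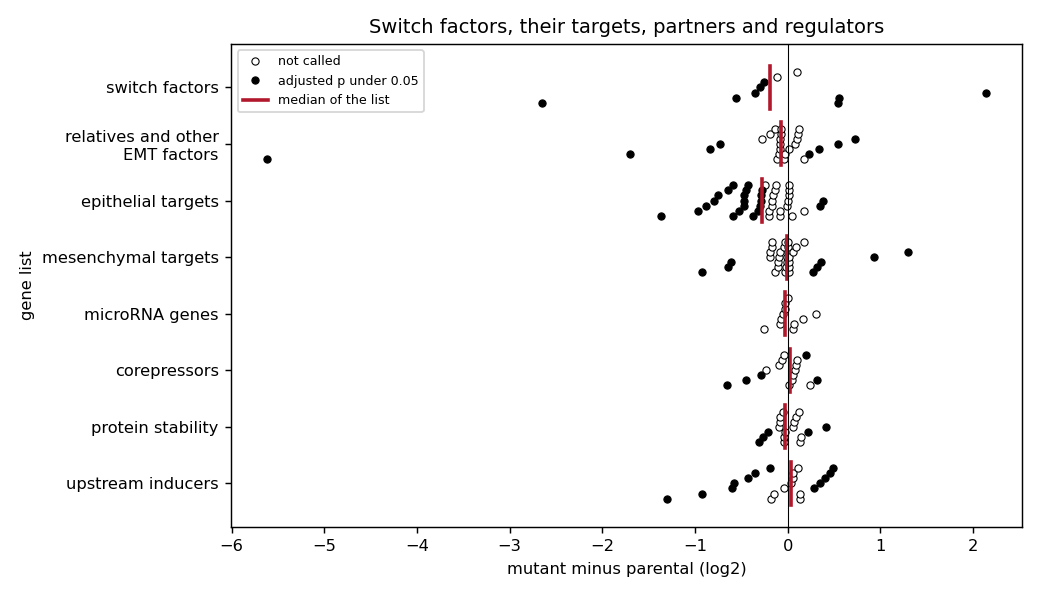
Mutant minus parental difference on the log2 scale (x axis) of each gene in 8 lists (y axis); filled points passed the adjusted p threshold, open points did not, and the red bar is the list's median. Epithelial targets have a median of -0.27 with 20 of 39 lower, mesenchymal targets a median of -0.0041 with 5 of 33 higher and 3 lower, and no microRNA gene passed.

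Among family relatives and other factors of epithelial to mesenchymal transition, 4 of 26 rose and 4 fell, with a median of -0.07. The share called, 30.8%, was near the 25.9% of all genes. EHF, an epithelial ETS factor, had 5.48, 5.79 and 4.95 on the mutant arrays, against 11.06, 10.99 and 11.01 on the parental arrays. It lay below background on all mutant arrays, and at that background it was at least 29.6-fold lower in the mutant (limma adjusted p = 4.22e-05). ELF3, a related ETS factor, fell by 0.84. ID2 and ID1, inhibitors of basic helix-loop-helix factors such as TWIST1, fell by 1.71 and 0.73. KLF4, an epithelial Kruppel-like factor on chromosome 9, rose by 0.73. TFCP2L1 and TFCP2, which belong to the wider Grainyhead superfamily, rose by 0.54 and 0.34, and KLF5 rose by 0.23. SNAI3 and TWIST2, the closest relatives of the Snail factors and of TWIST1, differed by -0.07 and -0.08 (limma adjusted p = 0.569 and 0.643), and both were named after their values were seen.

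The microRNA genes that act on ZEB or SNAI gave 0 limma calls among 11 measured, and 1, MIR200B, had an unadjusted limma p under 0.05. The values are those of each gene's probe set and not of a mature arm. MIR200B had 6.93, 6.82 and 6.91 on the mutant arrays, against 7.26, 7.04 and 7.11 on the parental arrays. All mutant values were lower, and the difference was -0.25 (limma adjusted p = 0.0663). It passed at adjusted p-values of 0.0177 to 0.0284 in 4 alternatives that tested fewer probe sets. MIR429 differed by -0.08, MIR200A by -0.02, MIR200C by 0.05 and MIR141 by 0.31 (limma adjusted p = 0.773, 0.904, 0.854 and 0.193). Only MIR200B and MIR429 stood above background on all 3 arrays of each line. MIR200B, MIR200C and MIR429, which share 1 seed, had differences of both signs.

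Corepressors that Snail and ZEB proteins recruit gave 2 of 16 higher and 3 lower, so 31.2% were called, near the 25.9% of all genes. HDAC1 and HDAC2, histone deacetylases, fell by 0.65 and 0.29, and CTBP2, a partner of ZEB proteins, by 0.45. EZH2, the Polycomb methyltransferase, rose by 0.32 and KDM1A, the demethylase that binds the Snail SNAG domain, by 0.20. Of 18 regulators of Snail or ZEB protein stability, 2 rose and 3 fell, so 27.8% were called, near the same 25.9%. MDM2, a ubiquitin ligase, rose by 0.42 and GSK3B, a kinase that marks SNAI1 for degradation, by 0.22. CTDSP2, a small phosphatase, fell by 0.31, CSNK1A1, a casein kinase, by 0.27 and FBXO45, a ubiquitin ligase component, by 0.21. Protein levels were not measured.

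Upstream inducers gave 5 of 21 higher and 7 lower, with a median of 0.04. The share called was 57.1%, against 25.9% of all genes. TGFBR2, a TGF-beta receptor, had 8.26 ± 0.07 in the mutant and 9.57 ± 0.09 in the parental line (SD, n = 3 each) and fell by 1.31 (limma adjusted p = 0.000137). TCF7L2, the WNT effector, fell by 0.92 and YBX1, known to promote SNAI1 translation, by 0.60, and the list's other named decrease was the ligand gene TGFB2 (limma adjusted p = 0.0332). TGFB2 stood above background on 0 of 3 mutant arrays and 2 of 3 parental arrays, with means of 5.68 in the mutant and 6.26 in the parental line. SMAD7, an inhibitor of TGF-beta signalling, rose by 0.49, the receptor gene NOTCH1 by 0.46, NFKB1 by 0.41 and SMAD4 by 0.35. SMAD7 and SMAD4 lie on chromosome 18 and NOTCH1 on chromosome 9. Without chromosomes 9, 13, 17 and 18 the list gave 2 of 15 higher and 7 lower, with no matching share over all genes given.

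The correlation over probe sets, which are not independent replicates, was 0.995 to 0.996 within a line and 0.988 to 0.989 between the lines. Of 11 markers of colon epithelium, 7 stood above background on all 3 arrays in each line, while VIL1, KRT20, CDH17 and GPA33 did not. The summed linear level of all 11 was 16708 to 17539 on the mutant arrays and 23168 to 24055 on the parental arrays. By limma 3 fell and 0 rose (CDH1, KRT8 and KRT18), so 27.3% were called, near the 25.9% of all genes. These 3 genes were already counted among the epithelial target genes above. The bright genes KRT8, EPCAM and KRT18 made up most of the sum, and EPCAM did not fall. Of 10 fibroblast markers, 4 stood above background on all 3 arrays in the mutant and 3 in the parental line. These were COL1A1, COL1A2 and COL3A1 in both lines and PDGFRB in the mutant only. PDGFRB was the list's only call (10%, against 25.9% of all genes), higher by 0.27 in the mutant (limma adjusted p = 0.0322). Below background, DCN averaged 3.49 in both lines and LUM 3.07 in both. The summed linear level of the list was 686 to 720 on the mutant arrays and 725 to 750 on the parental arrays. Of 9 leukocyte markers only CD68 stood above background on all 3 arrays in either line. Their summed level, mostly that of CD68, was 909 to 1007 on the mutant arrays and 873 to 907 on the parental arrays. Of 8 endothelial markers 2 stood above background on all 3 arrays in each line. Their summed level was 629 to 639 on the mutant arrays and 612 to 664 on the parental arrays. The part of other cell types in these results was not tested.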

How the data were processed

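RNA from 3 mutant and 3 parental HCT116 samples was labelled with biotin from 100 ng, per the labels' protocols. The authors deposited log2 values, 1 per probe set and array, for which the submitters' processing notes name RMA and Partek. For tool versions and the annotation's genome build, nothing is given in the sources used here. RMA equalises the distributions of the arrays and compresses differences near background. Array medians lay between 6.88 and 6.93. For arrays, their number limits the precision. The table has 33297 probe sets, 19460 of them annotated to 1 symbol, 1754 to more than 1 and 12083 without a name here. A gene with several probe sets was represented by the brightest.

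Mutant minus parental was fitted with limma 3.58.1 in R 4.3.3 (lmFit, eBayes, two-sided, no covariates, 4 residual and 2.16 prior degrees of freedom), checked on simulated data. Python 3.11.15 served for the rest. Chromosomes and gene order came from RefSeq (GRCh38.p14). The members and lists were chosen with earlier results of these data known. Named were all members, CDH1, VIM, up to 4 called genes per list and direction, and the 3 genes most like the member with the largest rise and the largest decrease. Listed genes without a single-symbol probe set were not used here. Alternatives covered normalization, dim probe sets, variance models, a minimum fold of 1.2, the replicate number as a block, probe set choice, the background level and each array left out. Separate cultures are not stated in the labels, and the p-values therefore rest on a spread between arrays that may be technical only.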

Additional observations from a re-analysis of the deposited data

How the results depend on the processing

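Of 157 values of the 10 factors under alternatives, 145 kept their direction and their side of the threshold, 11 lost the call and 1 reversed. The reversal was ZEB2, at -0.0097 (limma adjusted p = 0.933) when both of its probe sets were averaged. Requiring a fold of 1.2 in the test, which is stricter by construction, left 3 factors called, 1 higher and 2 lower (GRHL2, SNAI2 and TWIST1). It ended the calls of GRHL1 (-0.26), OVOL1 (-0.29), SNAI1 (-0.36), OVOL2 (0.55) and ZEB1 (0.55), at limma adjusted p-values of 0.087 or more. With that test 1442 genes were called in all, and the higher and lower counts were 0 and 9 for epithelial targets, 0 and 1 for corepressors, 0 and 0 for stability regulators and 0 and 3 for upstream inducers. For relatives the higher and lower counts were 1 and 4, and for mesenchymal targets 2 and 2.

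Same-numbered arrays did not deviate together (correlations of -0.01 to 0.04). This cannot show whether the arrays were handled in pairs, and the main fit did not pair them. With a replicate block GRHL1 (-0.26) had a limma adjusted p of 0.0565, 1 corepressor rose, and 1 stability regulator rose and 1 fell; the cause was not tested. With array medians centred 1 corepressor rose. Lower mesenchymal targets numbered 5 with quantile normalization again, an above-background filter, an intensity trend, array weights or single-symbol probe sets only, and 6 with averaged probe sets. MIR200B was the 1 lower microRNA gene in both dim filters, with single-symbol probe sets only and with averaged probe sets, where fewer tests were made. Without chromosomes 9, 13, 17 and 18, chosen after seeing the data, 13 epithelial targets were lower. Against the 99th percentile of olfactory receptor probe sets 5 factors were above background in the parental line. Against the 95th percentile of other cell types' markers, a level set by the brightest of them, 3 were in the mutant and 3 in the parental line. Against the olfactory receptor median plus 1 every factor but ZEB2 was above it in both lines.

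With each array left out in turn, differences ranged from -0.30 to -0.23 for GRHL1, -2.69 to -2.60 for GRHL2, -0.15 to -0.08 for GRHL3, -0.31 to -0.26 for OVOL1, 0.48 to 0.64 for OVOL2, 0.50 to 0.62 for ZEB1, 0.09 to 0.14 for ZEB2, -0.39 to -0.32 for SNAI1, 2.07 to 2.22 for SNAI2 and -0.60 to -0.52 for TWIST1. The called factors numbered 7 to 8, with 3 higher and 4 to 5 lower, and 3198 to 3627 genes were called in all. Relatives gave 2 to 3 higher and 4 to 5 lower, with 2 higher without mutant replicate 2 or 3 or parental replicate 1 or 2. Epithelial targets gave 2 higher and 16 to 19 lower, mesenchymal targets 4 to 5 higher and 3 lower, and microRNA genes 0. Upstream inducers gave 4 to 5 higher and 5 to 6 lower. Corepressors gave 1 higher without any one array and 3 lower. Stability regulators gave 1 to 2 higher, with 1 without mutant replicate 1 or 2 or parental replicate 2 or 3, and 1 to 2 lower, with 1 without any array but parental replicate 2. Above background were 8 factors in the mutant and 8 to 9 in the parental line. Values near background, such as those of ZEB2, GRHL3 and mutant GRHL2, are limited by signal over background.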
